A study of Mus musculus with 15 samples.

Results

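RNA sequencing was done on submandibular glands from 15 mice, and the libraries were divided here by how much RNA of the neighbouring sublingual gland they held. The measure was Muc19, the gel-forming mucin of sublingual mucous cells, as CPM of the library's unscaled total (CPM of total). Rich libraries had 1000 or more, poor libraries had 100 or less, and libraries between these limits were left out of the comparison. This gave 8 rich and 5 poor libraries, 13 of the 15 in all. Of the 5 libraries from NOD/LTJ mice given SJQYD, a treatment the labels name only by these letters, 4 were rich and 1 was poor. Of the 5 from untreated NOD/LTJ mice (called model), 2 were rich, 1 was poor and 2 fell between. Of the 5 from untreated ICR mice (called control), 2 were rich and 3 were poor. NOD/LTJ is an inbred strain prone to autoimmune disease of its salivary glands, and ICR is an outbred stock. The labels give the genotype of all mice as WT and say nothing of age, dose or how the mice relate to each other, so p-values measure only the spread between these libraries.

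In the rodent neck the submandibular and sublingual glands lie against each other and share a capsule. Sublingual acini are mainly mucous: they make gel-forming mucin, whose protein backbone is folded in the endoplasmic reticulum and covered with O-linked sugar chains in the Golgi. Submandibular acini are seromucous, and their granular ducts release growth factors and kallikreins. In bulk tissue, fewer cells of a type and less RNA per cell cannot be told apart.

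The markers that come with the rule besides Muc19 are A2ml1, a protease inhibitor of the alpha-2-macroglobulin family, and Dcpp2, a demilune cell and parotid protein. Dcpp1 and Dcpp3 are near-identical copies of Dcpp2 on chromosome 17, which bears on how reads could be shared between them. The promoters of A2ml1 and of the 3 Dcpp genes are shown as those of the markers and their copies, and say nothing of how reads were shared. They run from 250 bases before to 50 after the gene's start (RefSeq, build GRCm38.p6), 5′ to 3′ on the gene's strand.
A2ml1 promoter (chr6:128581557-128581856, minus strand): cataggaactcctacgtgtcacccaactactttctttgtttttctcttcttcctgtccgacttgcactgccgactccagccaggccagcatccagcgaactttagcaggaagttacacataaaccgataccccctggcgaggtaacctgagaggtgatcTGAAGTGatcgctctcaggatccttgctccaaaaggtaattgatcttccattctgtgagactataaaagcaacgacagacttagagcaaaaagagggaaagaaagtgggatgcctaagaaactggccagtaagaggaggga
Dcpp1 promoter (chr17:23880626-23880925, plus strand): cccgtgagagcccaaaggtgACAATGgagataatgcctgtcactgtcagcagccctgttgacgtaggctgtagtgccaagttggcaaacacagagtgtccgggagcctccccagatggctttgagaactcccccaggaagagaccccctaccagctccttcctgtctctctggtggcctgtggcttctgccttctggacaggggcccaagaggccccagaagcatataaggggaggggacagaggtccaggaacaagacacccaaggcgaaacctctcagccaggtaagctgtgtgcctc
Dcpp2 promoter (chr17:23898472-23898771, plus strand): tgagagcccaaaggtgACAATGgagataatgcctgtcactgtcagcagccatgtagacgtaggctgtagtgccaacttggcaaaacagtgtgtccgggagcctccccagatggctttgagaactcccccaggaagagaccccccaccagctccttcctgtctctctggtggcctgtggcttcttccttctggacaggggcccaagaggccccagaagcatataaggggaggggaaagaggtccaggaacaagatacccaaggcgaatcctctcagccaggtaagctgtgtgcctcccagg
Dcpp3 promoter (chr17:23917208-23917507, plus strand): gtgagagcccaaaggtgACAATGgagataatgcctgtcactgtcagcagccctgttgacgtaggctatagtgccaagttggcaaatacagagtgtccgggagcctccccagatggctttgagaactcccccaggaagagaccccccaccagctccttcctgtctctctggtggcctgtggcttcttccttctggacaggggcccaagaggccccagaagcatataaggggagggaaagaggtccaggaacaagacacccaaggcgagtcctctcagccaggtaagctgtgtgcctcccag
Over the 300 bases, the Dcpp promoters were identical with each other at 95.3% to 97.0% of positions, and with A2ml1 at 51.0% to 51.7%. Capitals mark matches, on either strand, to TNAAGTG, a core bound by NKX2 homeobox proteins, and to CATTGT, a core bound by SOX proteins. Neither motif overlaps the other in these windows. A2ml1 held 1 match to TNAAGTG, and each Dcpp promoter held 1 match to CATTGT, in reverse complement. TNAAGTG was found in 11.5% of all 32851 promoters of the table and CATTGT in 12.6%. Among 101 promoters of 73 genes higher in rich libraries, these shares were 16.8% and 8.9%. A match describes the letters and is not evidence of binding.

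Muc19 chose the classes, so its levels and those of A2ml1, Dcpp2 and Smgc, which shares the Muc19 locus, are described with no test. Muc19 made up 9743, 3732, 4584, 3190.3, 2582, 2098, 1894 and 1501 CPM of total in the rich libraries SJQYD 1, control 4, SJQYD 3, model 4, SJQYD 2, control 2, SJQYD 4 and model 1. It made up 48.9, 47.6, 17.9, 8.18 and 2.82 in the poor libraries control 1, control 5, model 3, SJQYD 5 and control 3. The libraries left out, model 5 with 513 and model 2 with 287, lay in a wide gap between model 1, the lowest rich library, and control 1, the highest poor library. From here on, CPM are normalised read counts scaled with TMM factors. Rich libraries are given by their lowest, median and highest value, and poor libraries in the order SJQYD 5, model 3, control 1, control 3 and control 5.

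A2ml1 followed Muc19 almost count for count. Rich libraries had 1267, 2849 and 5954 CPM of A2ml1, against 9.74, 12.2, 93.8, 3.37 and 52.0 CPM in poor libraries. There were 0.722 to 1.13 A2ml1 counts per Muc19 count in rich libraries, 0.821 to 1.14 in poor libraries, and 1.26 and 1.3 in the libraries between. Dcpp2 also went with Muc19, except in model 3. Dcpp2 had 7537, 15018 and 24104 CPM in rich libraries and 40.5, 1428, 508, 14.6 and 266 CPM in poor libraries. The rich libraries had 3.61 to 7.90 Dcpp2 counts per Muc19 count and model 3 had 96.0. Per length, the authors' FPKM values averaged 20456 for Dcpp2, 418 for A2ml1 and 343 for Muc19 in rich libraries, and 530.5, 2.72 and 2.38 in poor libraries.

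The copies of Dcpp2 were tested and were not called. Dcpp1 was at 6157, 7935 and 13644 CPM in rich libraries, against 27.9, 5952, 713, 10.5 and 113 CPM in poor libraries. Model 3 was the library that stood out: it had 400.2 Dcpp1 counts per Muc19 count, against 2.22 to 6.51 in rich libraries. Its log2 fold change was 4.16 (SE 1.53, adjusted p = 0.474). For Dcpp3 the log2 fold change was 4.85 (SE 1.2, adjusted p = 0.192). Dcpp1 exceeded Dcpp2 in count in model 3 (4.17 to 1) and in control 1 (1.4 to 1), and was below it in every other library. Model 3 also held the most RNA of parotid genes, where Amy1, Bpifa2, Smr3a and Chia1 summed to 16.0% of its counts, against 0.623% in control 1. The annotated loci of Dcpp1 and Dcpp2 overlap, so reads of the copies may have been split between them.

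Smgc, submandibular gland protein C, is made from the same locus as Muc19 by alternative splicing (chr15:91838265-91861438 for Smgc and chr15:91838326-91934555 for Muc19, GRCm38, both on the plus strand). Rich libraries had 503, 1124 and 1664 CPM of Smgc, against 3.32, 245, 2064, 2009 and 2422 CPM in poor libraries. It did not divide the libraries as Muc19 did: the 3 poor ICR libraries had 2009 to 2422 CPM, above every rich library, and SJQYD 5 had almost none. The rich libraries had 0.191 to 0.846 Smgc counts per Muc19 count and the poor libraries 0.373 to 507.

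**Figure D1:**
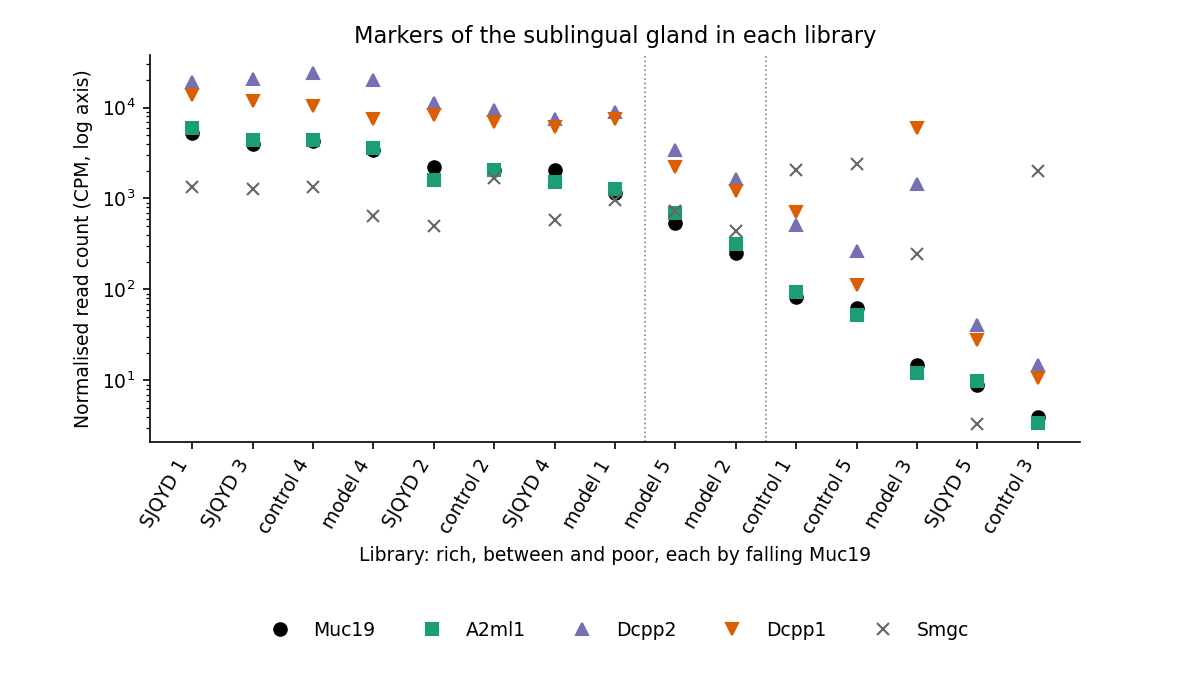
CPM (log axis) of Muc19, A2ml1, Dcpp2, Dcpp1 and Smgc in each of 15 libraries, in the order rich, between and poor, divided by dotted lines. A2ml1 lies on Muc19 throughout, Dcpp1 and Dcpp2 lie above it and stand out in model 3 (5952 and 1428 CPM), and Smgc is at 2009 to 2422 CPM in the 3 poor ICR libraries.

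As to the libraries as a whole, the total count ran from 39510018 to 68694263 in rich and from 57056428 to 63101584 in poor libraries. Mucl2, a mucin-like protein that marks submandibular acini, the labelled tissue, took 37.9 ± 9.94% of counts in rich and 44.7 ± 11.4% in poor libraries. The 4 parotid genes took more than 3% in SJQYD 1 (6.5%), control 2 (4.17%) and model 3. Xist, which coats the silenced X chromosome, was at 1.17 CPM of total in SJQYD 3 and between 96.5 and 467 elsewhere. Transcripts of the mitochondrial genome took 1.70 ± 0.388% of counts in rich and 1.41 ± 0.294% in poor libraries. Two-sided exact permutation tests over 1287 arrangements compared 5 values, with Xist not among them. These were the total count, the number of genes with a count, and the shares of Mucl2, of the 4 parotid genes and of mitochondrial transcripts. None of the 5 passed after adjustment. The nearest was the number of genes with a count, 22205 ± 905 in rich and 20760 ± 1187 in poor libraries (exact p = 0.0295, adjusted p = 0.148; the smallest p possible is 0.000777).

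Over all 20041 genes tested, with the treatment group as covariate, rich libraries differed from poor ones mostly by genes that were higher. 109 genes (0.544%) were higher and 8 (0.0399%) lower at an adjusted p under 0.05 in edgeR's quasi-likelihood test. Muc19 and A2ml1 passed the same threshold and are counted among the 109, but for them this is a description, which leaves 107 other genes. The libraries were grouped by a value measured in them, so a p here says how firmly a gene went with that grouping and is not an effect of a treatment. At an unadjusted p under 0.05, 5.24% of all genes tested were higher and 3.17% lower. The median log2 fold change was 2.92 among the higher genes, -0.87 among the lower genes and 0.01 over all genes tested. For 12 of the 109 no poor library had a count, and with these at the bound that 3 counts per poor library give, the median of the higher genes was 2.72. That bound is too high if a fragment adds several counts. At least a 2-fold difference was seen in 98 of the higher and 2 of the lower genes. The classes did not overlap for 93 of the 109 and 4 of the 8, where 0.868% of all genes lay wholly above and 0.19% wholly below.

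The number of calls leaned on single libraries. It was 41 higher genes without SJQYD 5, 49 without control 4 and 65 without model 3, with 40, 48 and 58 of them among the 109, and 37 (32 of them among the 109) without the 3 libraries over 3% parotid. The lower genes numbered 33 without control 1 and 0 without control 4 or SJQYD 5. All 109 kept their direction in each of these fits.

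**Figure D2:**
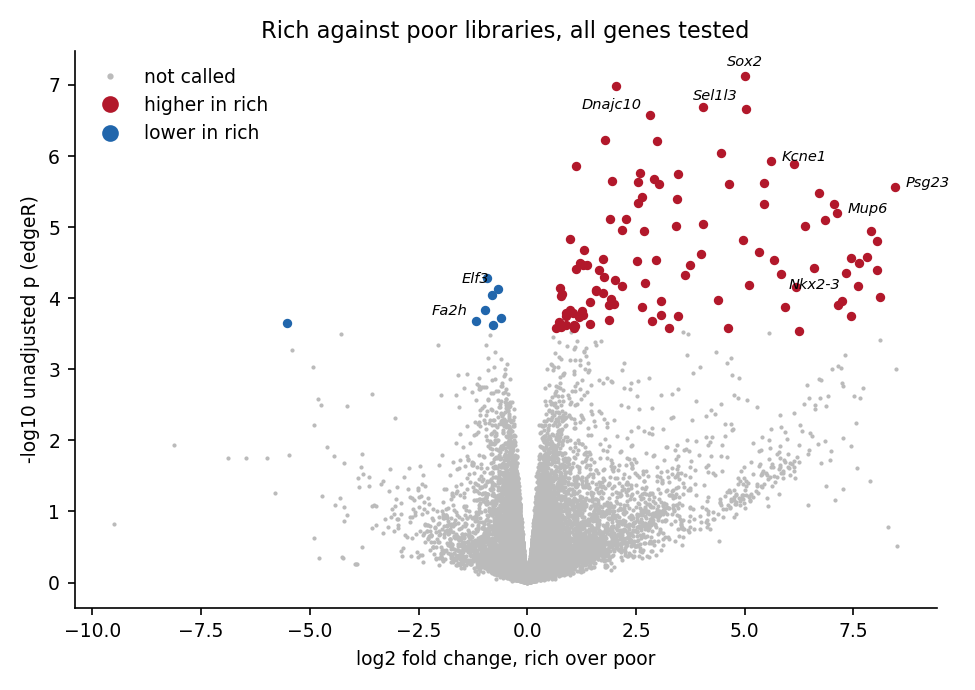
Each point is 1 gene tested: log2 fold change of rich over poor libraries against -log10 of the unadjusted p from edgeR, with Muc19, A2ml1, Dcpp2 and Smgc left out. The 107 other genes called higher (red) lie mostly beyond 1. The median of all 109 called higher, Muc19 and A2ml1 included, is 2.92. The 8 called lower (blue) have a median of -0.87, and positions of genes with no count in poor libraries depend on the fit.

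The genes with the largest differences were the major urinary proteins Mup4 and Mup6, the transcription factors Nkx2-3 and Sox2, the myelin gene Mobp, the sugar transferase B3gnt6, the channel subunit Kcne1, and Tmc5, Sel1l3 and Cgref1. They were chosen as called genes that differed at least 2-fold, averaged at least 5 CPM in rich libraries and did not overlap between the classes. A2ml1 would rank among them by the size of its difference, which is given here with no test.

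Nkx2-3 is a homeobox transcription factor that mice need for the sublingual gland to form properly. Nkx2-3 had 5.66, 10.5 and 18.2 CPM in rich libraries and 0, 0, 0.419, 0 and 0.35 CPM in poor libraries. Every rich library was far above every poor one, and the libraries between had 2.26 (model 5) and 1.58 CPM (model 2). The log2 ratio of rich over poor was 6.61 (SE 0.94, adjusted p = 0.0137). Without SJQYD 5 the adjusted p was 0.0527, and without the 3 parotid-rich libraries 0.135. Sox2, a transcription factor of progenitor cells that mouse salivary glands need to form acini, was low but evenly divided. Sox2 was at 4.64, 8.54 and 15.3 CPM in rich libraries, against 0.175, 0.516, 0.195, 0.221 and 0.329 CPM in poor libraries. For Sox2 the log2 fold change was 5.02 (SE 0.45, adjusted p = 0.00105). This call held when any library was left out. The developmental transcription factors Tbx1, Isl2 and Pax1, picked after their values were seen, had the same division at lower levels. Rich libraries had 2.46, 3.68 and 6.58 CPM of Tbx1, against 0.0873, 0.195, 0.195, 0.32 and 0 CPM in poor libraries. On the log2 scale the difference was 4.63 (SE 0.58, adjusted p = 0.00263). Isl2 had 2.12, 4.43 and 6.46 CPM in rich libraries and 0, 0.0837, 0.363, 0 and 0 CPM in poor libraries. The adjusted p of Isl2 was 0.0154, and between 0.0511 and 0.0686 without control 4, model 3 or SJQYD 5. Without the parotid-rich libraries it was 0.206. Pax1 had no count in any poor library and 0.0719, 0.699 and 1.98 CPM in rich ones. Its adjusted p was 0.00803, 0.0562 without SJQYD 5 and 0.125 without the parotid-rich libraries. Having no count in poor libraries, Pax1 passed the expression filter through rich libraries only. Its difference was 13.4-fold if 3 counts per poor library are taken as the floor, which covers counting error only. That value is too high if a fragment adds several counts.

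Enzymes that build O-linked sugar chains were 35 in the list tested, of which 4 were higher (Galnt4, Galnt5, Galnt12 and B3gnt6) and none lower, with a median log2 fold change of 0.31. Over all genes tested, 0.544% were higher and 0.0399% lower. At an unadjusted p under 0.05, 11 of the 35 were higher and 1 was lower, against 5.24% and 3.17% of all genes. B3gnt6 makes the core 3 structure of mucin sugar chains. B3gnt6 was at 8.19, 27.0 and 55.6 CPM in rich libraries, against 0.541, 0.363, 1.14, 0 and 0.762 CPM in poor libraries. The classes were far apart. The difference came to 5.66 (SE 0.77, adjusted p = 0.0122) on the log2 scale. Without control 4, model 3 or SJQYD 5 its adjusted p was 0.0509, 0.0565 and 0.0785, and without the parotid-rich libraries 0.145. Galnt4, Galnt5 and Galnt12 each add the first sugar to the mucin backbone. Rich libraries had 8.13, 14.1 and 21.8 CPM of Galnt4, against 2.62, 4.55, 4.91, 3.89 and 4.03 CPM in poor libraries. The log2 fold change was 1.9 (SE 0.27, adjusted p = 0.00536). The classes did not overlap and the call held when any library was left out. Galnt12 had 10.1, 14.4 and 30.4 CPM in rich libraries and 0.681, 3.65, 0.725, 0.591 and 1.34 CPM in poor libraries. Its log2 fold change was 3.63 (SE 0.54, adjusted p = 0.0156). Without control 4 or SJQYD 5 its adjusted p was 0.0511 and 0.0787. Galnt5 stayed low, at 0.374, 1.44 and 2.08 CPM in rich against 0.122, 0.112, 0.391, 0.271 and 0.226 CPM in poor libraries, and its classes overlapped. Its adjusted p was 0.0297 and passed 0.05 when any of 7 libraries was left out (0.0504 to 0.184). The summed level of the 36 enzymes listed hardly differed, at 717 to 1197 CPM in rich and 686 to 1076 CPM in poor libraries.

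Outside that list and picked after their values were seen, 3 further sugar transferases were called higher. A4gnt caps gastric gland mucin with N-acetylglucosamine. A4gnt was at 1.22, 3.08 and 7.69 CPM in rich libraries, against 0, 0, 0.307, 0 and 0 CPM in poor libraries. Only control 1 of the poor libraries had a count. The log2 ratio of rich over poor was 6.18 (SE 1.01, adjusted p = 0.0199). Without model 3 or SJQYD 5 the adjusted p was 0.0730 and 0.0817, and without the parotid-rich libraries 0.205. B3galt5, a galactosyltransferase of sugar chains, was at 11.2, 22.9 and 47.6 CPM in rich and at most 8.10 CPM in poor libraries (log2 fold change 1.88, SE 0.33, adjusted p = 0.0291). Mgat3, which adds the bisecting sugar to N-linked chains, had a smaller difference with overlap (log2 fold change 1.25, SE 0.25, adjusted p = 0.0331). Both B3galt5 and Mgat3 lost the call when any of 7 libraries was left out, with adjusted p up to 0.164 and 0.236.

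**Figure D3:**
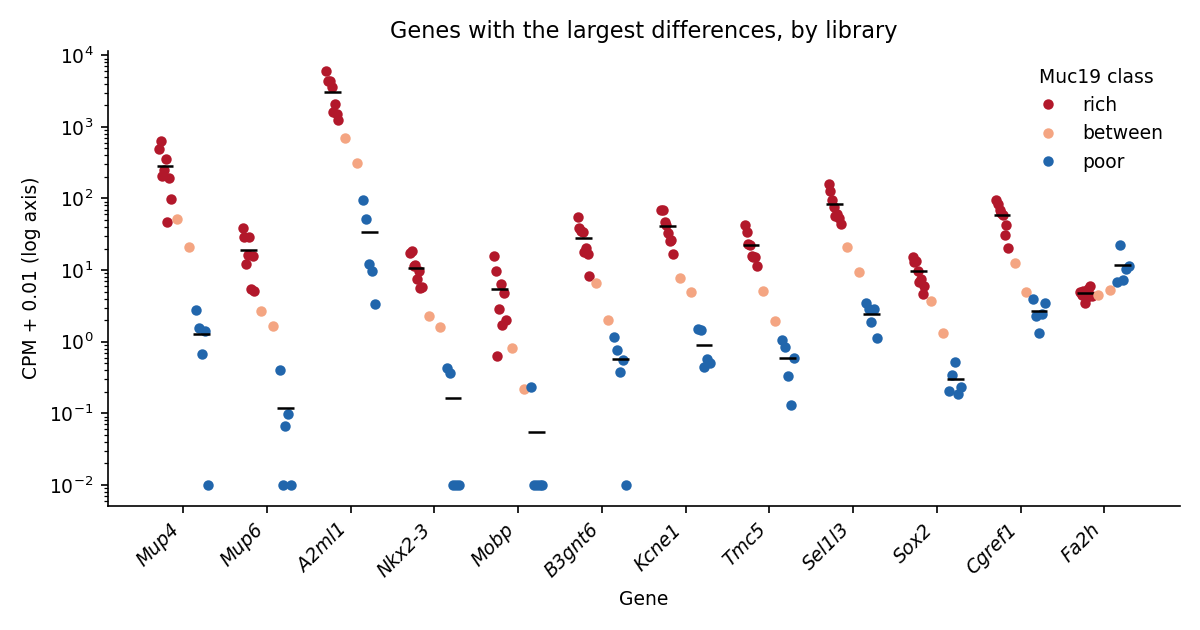
CPM + 0.01 (log axis) of the genes with the largest differences, by library, with rich libraries left, the libraries between in the middle and poor libraries right; black lines are means of rich and of poor libraries. The genes were chosen for having no overlap between rich and poor libraries, and Fa2h is the only one that is lower in rich libraries.

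Transcription and assembly factors of mucous cells were 21 tested, of which 3 were higher (Nkx2-3, Creb3l4 and Klf5), 1 was lower (Elf3) and the median was 0.30. Over all genes tested, 0.544% were higher and 0.0399% lower. At an unadjusted p under 0.05, 6 of the 21 were higher and 3 were lower, against 5.24% and 3.17% of all genes. Creb3l4 is a transcription factor held in the endoplasmic reticulum membrane. Rich libraries had 9.27, 18.5 and 28.9 CPM of Creb3l4, against 4.22, 2.59, 8.2, 6.35 and 7.35 CPM in poor libraries. For Creb3l4 the log2 fold change was 1.89 (SE 0.35, adjusted p = 0.0393). The call was lost when any of 7 libraries was left out, with adjusted p up to 0.241. Klf5, a factor of epithelial growth, differed little (log2 fold change 0.78, SE 0.16, adjusted p = 0.0459), overlapped, and lost the call in 10 of the 13 fits without a library. Elf3, an epithelial ETS factor, went the other way. Elf3 had 11.6, 17.6 and 21.0 CPM in rich libraries and 24.4, 33.8, 24.4, 26.3 and 31.0 CPM in poor libraries. On the log2 scale the difference was -0.68 (SE 0.12, adjusted p = 0.0207). Its classes did not overlap, and the adjusted p was 0.102, 0.123 and 0.124 without control 4, model 3 or SJQYD 5. Without the parotid-rich libraries it was 0.18.

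Few folding and export genes of the secretory pathway were called. Of 25 endoplasmic reticulum folding genes none was called (1 higher and 4 lower at an unadjusted p under 0.05, 0 by DESeq2), with a median of -0.10. Of all genes tested, 5.24% were higher and 3.17% lower at that unadjusted p. Of 25 vesicle coat genes none was called (3 higher and 0 lower unadjusted, 1 higher by DESeq2), with a median of 0.03. DESeq2 called 279 higher and 67 lower of the 19948 genes it tested. Dnajc10, a disulfide reductase of the endoplasmic reticulum that is in neither count, is named for its likeness to Muc19. Dnajc10 was at 38.9, 85.2 and 148 CPM in rich libraries, against 9.63, 11.4, 17.2, 13.6 and 13.5 CPM in poor libraries. No poor library exceeded 17.2 CPM. The difference came to 2.82 (SE 0.28, adjusted p = 0.00108) on the log2 scale. Lman1l, a lectin related to a cargo receptor for glycoproteins, was the only called gene among 25 submandibular acinar genes, whose median was -0.16. Among all genes tested, 0.544% were called higher. At an unadjusted p under 0.05, 3 of the 25 were higher and 0 lower, and DESeq2 called 2 higher. Rich libraries had 119, 199 and 319.6 CPM of Lman1l, against 53.4, 38.8, 74.8, 62.1 and 88.5 CPM in poor libraries. The log2 fold change was 1.77 (SE 0.29, adjusted p = 0.016). Its adjusted p was 0.111, 0.0896 and 0.113 without control 4, model 3 or SJQYD 5. Of the genes picked after their values were seen, Casc4, a Golgi membrane protein, averaged 9.03 ± 4.06 CPM in rich and 1.17 ± 0.160 CPM in poor libraries (SD, adjusted p = 0.00263), and Syt7, a calcium sensor of exocytosis, 10.9 ± 7.90 and 0.523 ± 0.155 CPM (SD, adjusted p = 0.00585).

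Major urinary proteins are lipocalins that carry pheromones, and their genes have near-identical copies, so their values are uncertain. Mup4 had 47.2, 228 and 628 CPM in rich libraries and 1.41, 0.656, 2.76, 0 and 1.56 CPM in poor libraries. Each rich library was above each poor one. Its log2 fold change was 7.34 (SE 1.04, adjusted p = 0.0151). Without control 4, model 3 or SJQYD 5 the adjusted p of Mup4 was 0.0785, 0.0687 and 0.0826, and 0.142 without the parotid-rich libraries. Mup6 was at 5.07, 16.0 and 38.1 CPM in rich libraries, against 0.0873, 0.0558, 0.391, 0 and 0 CPM in poor libraries. The log2 ratio of rich over poor was 7.12 (SE 0.83, adjusted p = 0.0047). Control 1 stood out among the poor libraries, and without the parotid-rich libraries the adjusted p was 0.0723.

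Pglyrp1, Sftpd and Fam3b are 3 further called genes with secreted products, picked one by one after their values were seen. Pglyrp1 binds bacterial peptidoglycan. Rich libraries had 199.8, 316 and 683 CPM of Pglyrp1, against 33.9, 70.4, 21.4, 21.8 and 17.4 CPM in poor libraries. The libraries between were at 113 (model 5) and 68.1 CPM (model 2), model 2 below model 3. For Pglyrp1 the log2 fold change was 3.44 (SE 0.42, adjusted p = 0.00354). Sftpd, a collectin, and Fam3b, a secreted cytokine-like protein, were near 0 in poor libraries. Sftpd had 1.0, 2.56 and 6.64 CPM in rich libraries and 0, 0, 0.112, 0.0984 and 0 CPM in poor libraries. Fam3b was at 1.51, 4.35 and 9.41 CPM in rich libraries, against 0, 0.0418, 0.112, 0 and 0 CPM in poor libraries. Their adjusted p was 0.00536 and 0.00369, and that of Fam3b was 0.0523 without the parotid-rich libraries. Without the markers A2ml1 and Dcpp2, 15 sublingual and mucous secretory products were tested and none was called by edgeR. Of these, 7 were higher and 1 was lower at an unadjusted p under 0.05 (5.24% and 3.17% of all genes). DESeq2 called 4 higher and 1 lower, against 279 higher and 67 lower of the 19948 genes it tested. The median log2 fold change of the 15 was 0.78 (0.49 with the 1 gene at 0 in all poor libraries set to its bound). Ltf, the iron-binding lactoferrin, missed the threshold without overlap. Rich libraries had 10.9, 38.5 and 77.6 CPM of Ltf, against 0.279, 3.91, 0.698, 0 and 0.803 CPM in poor libraries. On the log2 scale the difference was 5.55 (SE 1.0, adjusted p = 0.0522). Fcgbp, a mucus protein, averaged 5.73 ± 1.99 CPM in rich and 2.04 ± 1.10 CPM in poor libraries (SD, adjusted p = 0.0695).

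Dmbt1, a mucin-like scavenger protein of saliva listed with the submandibular products, fell into separate ranges by strain within the rich libraries. Dmbt1 had 1.14, 46.8 and 139 CPM in rich libraries and 0.0698, 2.39, 0.446, 0 and 0.206 CPM in poor libraries. The 2 rich ICR libraries, control 2 and control 4, had 2.70 and 1.14 CPM, below the 42.9 CPM of the lowest rich NOD/LTJ library. Control 4 also lay below model 3. In edgeR's test of whether the class difference varied by strain, Dmbt1 did not pass (NOD/LTJ minus ICR 2.64, SE 1.92, unadjusted p = 0.204, adjusted p = 0.96). The difference of all rich from all poor libraries came to 4.88 (SE 1.09, adjusted p = 0.139) on the log2 scale.

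Membrane transport genes were also among those called. Kcne1 is a regulatory subunit of potassium channels. Kcne1 was at 16.6, 37.5 and 69.8 CPM in rich libraries, against 0.558, 0.432, 1.48, 0.492 and 1.46 CPM in poor libraries. Classes were more than an order of magnitude apart. The log2 fold change was 5.62 (SE 0.55, adjusted p = 0.00249). Tmc5 belongs to the transmembrane channel-like family. Rich libraries had 11.4, 19.1 and 42.3 CPM of Tmc5, against 0.122, 0.321, 1.06, 0.591 and 0.823 CPM in poor libraries. Its log2 fold change was 5.44 (SE 0.58, adjusted p = 0.00263). Slc26a6, an anion exchanger for chloride, bicarbonate and oxalate that was picked after its values were seen, had a smaller and even difference. Slc26a6 had 17.1, 18.7 and 27.5 CPM in rich libraries and 10.1, 9.04, 10.6, 9.38 and 7.97 CPM in poor libraries. The log2 ratio of rich over poor was 1.13 (SE 0.14, adjusted p = 0.00249). Of 19 ion transport and ionocyte genes of the ducts none was called, with 1 higher and 8 lower at an unadjusted p under 0.05 (5.24% and 3.17% of all genes), 0 by DESeq2 and a median of -0.39. Scnn1g, a subunit of the epithelial sodium channel, was at 0.842, 1.57 and 2.65 CPM in rich and 3.46, 2.92, 4.27, 3.25 and 6.40 CPM in poor libraries, without overlap (adjusted p = 0.246).

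Sel1l3 is a membrane protein with Sel1-like repeats, and Cgref1 is a secreted protein with EF-hand motifs. Sel1l3 was at 44.3, 68.3 and 157 CPM in rich libraries, against 2.83, 1.86, 3.43, 1.13 and 2.82 CPM in poor libraries. For Sel1l3 the log2 fold change was 5.03 (SE 0.44, adjusted p = 0.00108). Rich libraries had 20.4, 60.5 and 94.9 CPM of Cgref1, against 2.46, 1.33, 3.93, 3.45 and 2.24 CPM in poor libraries. On the log2 scale the difference was 4.46 (SE 0.44, adjusted p = 0.00224). Both divided the classes by more than 4 log2 units and kept the call when any library was left out. Mobp, a myelin protein, had the least firm call of those with large differences. Mobp had 0.619, 3.79 and 15.7 CPM in rich libraries and 0, 0, 0.223, 0 and 0 CPM in poor libraries. Control 1 held the only counts among poor libraries. The difference came to 6.26 (SE 1.17, adjusted p = 0.050) on the log2 scale. This lay just under the threshold. Its call was lost in 12 of the 13 fits without a library, with adjusted p between 0.0525 and 0.175, and in 19 of 25 alternatives in all. Psg23, a pregnancy-specific glycoprotein picked after its values were seen, had no count in poor libraries. Rich libraries had 0.139, 0.711 and 2.33 CPM of Psg23 (adjusted p = 0.00272). Without the 3 parotid-rich libraries its adjusted p was 0.0523. Like Pax1, it passed the expression filter through rich libraries only. Its difference was 16.0-fold by the same floor, which is too high if a fragment adds several counts.

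Of the 8 lower genes, those described here other than Nnat had log2 fold changes between -1.18 and -0.68. Fa2h, which hydroxylates fatty acids of sphingolipids, was the only one that met the rule for large differences. Fa2h was at 3.45, 4.73 and 6.0 CPM in rich libraries, against 10.4, 7.37, 6.86, 11.3 and 22.7 CPM in poor libraries. The log2 fold change was -1.18 (SE 0.24, adjusted p = 0.041). Its call was lost when any of 10 libraries was left out, with adjusted p up to 0.230. Sema3c, an axon guidance factor, Asgr1, a lectin receptor, Abi3, an actin regulator, and Ybx2, an RNA-binding protein of germ cells, had log2 fold changes between -0.97 and -0.78 and adjusted p between 0.0165 and 0.0437. Sema3c lost the call without any of 11 libraries, Ybx2 of 9, Asgr1 of 4 and Abi3 of 3. For Nnat, neuronatin, the log2 fold change was -5.52 (SE 1.11, adjusted p = 0.0420), but its level in poor libraries came mostly from SJQYD 5 with 4.80 CPM, and without that library its adjusted p was 0.738. Model 2, between the classes, had 8.41 CPM of Nnat.

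Granular duct products mostly had negative log2 fold changes, but none passed the test over all genes. Of 20 tested, 15 were lower at an unadjusted p under 0.05, as were 3.17% of all genes, and none was higher. DESeq2 called 2 of the 20 lower, against 67 of the 19948 genes it tested. The median was -1.27 against 0.01 over all genes. Egf, epidermal growth factor, is released by these ducts. Rich libraries had 52.4, 74.4 and 152 CPM of Egf, against 236, 171, 89.1, 345 and 557 CPM in poor libraries. Its log2 fold change was -1.44 (SE 0.35, adjusted p = 0.163). Control 1 had 89.1 CPM and so lay among the rich libraries. Crisp3, a cysteine-rich secreted protein, averaged 391 ± 101 CPM in rich and 1041 ± 672 CPM in poor libraries (SD, adjusted p = 0.171). The kallikrein Klk1b5, one of many near-identical copies, averaged 240.1 ± 85.1 and 609 ± 379 CPM (SD, adjusted p = 0.267). The summed level of the 21 listed genes present was 5751 to 14563 CPM in rich and 13210.3 to 39326 CPM in poor libraries, which overlap. In SJQYD 3, the library with 1.17 CPM of total of Xist, Egf was at 76.1 CPM, within the range of the other rich libraries.

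Markers of fat and of lymphoid tissue had fold changes away from 0, but none passed the test over all genes. Of 15 adipocyte genes none was called and 11 were lower at an unadjusted p under 0.05 (3.17% of all genes). DESeq2 called 5 of them lower, against 67 lower and 279 higher of the 19948 genes it tested. The adipocyte median was -2.43. Adipoq, the fat hormone adiponectin, was at 0, 0.133 and 0.652 CPM in rich and 11.2, 0.488, 0, 0.591 and 0.865 CPM in poor libraries (adjusted p = 0.0523), so that SJQYD 5 stood apart among these. Model 2, a library between the classes, had more, at 20.9 CPM. The summed adipocyte level was 80.9 to 121 CPM in rich and 98.4 to 613 CPM in poor libraries, and 917 CPM in model 2. Of 12 lymph node genes, 18 T cell genes and 16 B cell genes none was called, with 2, 3 and 1 higher (5.24% of all genes) and none lower at an unadjusted p under 0.05, and 1, 0 and 0 by DESeq2. Their medians were 1.89, 1.64 and 1.17. The summed level of T cell genes was 8.50 to 267 CPM in rich and 7.51 to 42.5 CPM in poor libraries, that of B cell genes 44.8 to 239 and 8.81 to 244 CPM, and that of lymph node genes 15.6 to 313 and 11.8 to 47.1 CPM. None of these markers was at 0 in all libraries. Plasma cell genes (15 tested, none called, 3 higher and 1 lower unadjusted, 0 by DESeq2) had a median of 0.71, with 463 to 2881 CPM in rich and 465 to 1834 CPM in poor libraries. The part of fat, lymphoid cells and granular ducts in the 117 calls was not tested.

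**Figure D4:**
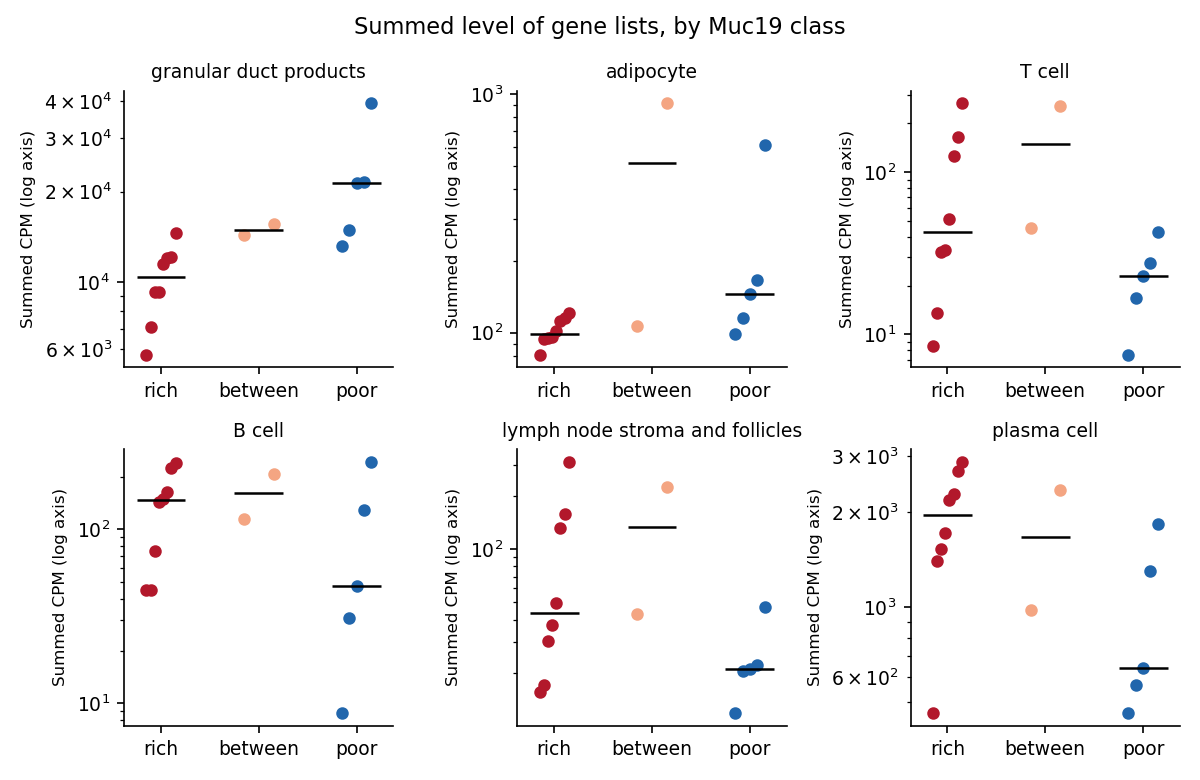
Summed CPM (log axis) of 6 gene lists in each library, for rich libraries (left), the libraries between and poor libraries (right); black lines are medians. Granular duct products are lower in most rich libraries, and T cell and lymph node genes reach 267 and 313 CPM in rich libraries, but the classes overlap in every list.

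Among the remaining cell type markers edgeR called 1 gene. Vwf, von Willebrand factor of endothelium and platelets, was the only one of 12 endothelial genes called, in a list whose median was -0.19. Among all genes tested, 0.544% were called higher. Vwf had 23.7, 37.3 and 118 CPM in rich libraries and 7.92, 6.42, 2.96, 4.92 and 4.45 CPM in poor libraries. The log2 ratio of rich over poor was 2.97 (SE 0.42, adjusted p = 0.0122). Its adjusted p was 0.0787 without SJQYD 5 and 0.0602 without the parotid-rich libraries. None was called among markers of myoepithelial and basal cells, skeletal muscle, macrophages, nerve, fibroblasts, red cells and keratinised epithelium. DESeq2 called 2 nerve genes higher and 1 lower and none in the other 6. Of the 19948 genes it tested, it called 279 higher and 67 lower. An unadjusted p under 0.05 was reached by 5 higher and 2 lower of 15 nerve genes and by 3 lower of 14 fibroblast genes. At most 1 gene in each of the rest reached it. Of all genes tested, 5.24% were higher and 3.17% lower at that p. Medians of the function lists for interferon response, clock, oxidative phosphorylation and cell division lay between -0.19 and 0.12, with none called by edgeR or DESeq2. At an unadjusted p under 0.05, 2 of 18 clock genes were higher. Lower were 3 of 25 oxidative phosphorylation genes and 1 of 20 cell division genes, beside the same shares of all genes. The 13 parotid products tested had a median of 1.47 with none called, none under an unadjusted p of 0.05 and none by DESeq2. Their sum was 20695 to 68577 CPM in rich and 20471 to 172240.0 CPM in poor libraries.

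Levels could also be set against Muc19 itself over all 15 libraries, which describes the same values that chose the classes. Among 8669 genes with a mean of at least 5 CPM, the 10 most like Muc19 by Pearson r of log2(CPM + 1) after removing group means were A2ml1 (0.997), Mup4 (0.984), Kcne1 (0.978), Sel1l3 (0.977), B3gnt6 (0.968), Nkx2-3 (0.963), Tmc5 (0.962), Dcpp2 (0.959), Mup6 (0.956) and Dnajc10 (0.952). Among the 5 least like it were Nudt5, a nucleotide sugar hydrolase (-0.88), Pdha1, a subunit of pyruvate dehydrogenase (-0.86), Elf3 (-0.85) and 9130401M01Rik (-0.83). The place of Nudt5 depended on removing group means. With the means kept, its r was -0.39, against -0.85 for Pdha1, -0.83 for Elf3 and -0.83 for 9130401M01Rik. The points share a library, its depth and its scaling.

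A doubling of Muc19 went with a rise of 0.97 log2 units for A2ml1, 0.99 for Mup4 and 0.95 for Nkx2-3, but of 0.73 for Kcne1, 0.35 for Dnajc10 and 0.14 for Slc26a6. Over the 109 higher genes this slope ran from 0.077 to 1.19, and 39 were above 0.5. Muc19 itself and the marker A2ml1 are among the 39. The median slope was 0.35 over the 109 and 0.0022 over all genes tested. For the 109 the sign of the slope is fixed by how they were chosen. The 2 libraries between did not enter the comparison of rich with poor libraries. For 54 of the 109 genes both lay above every poor library, as for 8.06% of all genes tested. Muc19, for which the rule fixes this, and the marker A2ml1 are among the 54. Both libraries were set between by their Muc19, so this count is a description and no independent check.

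**Figure D5:**
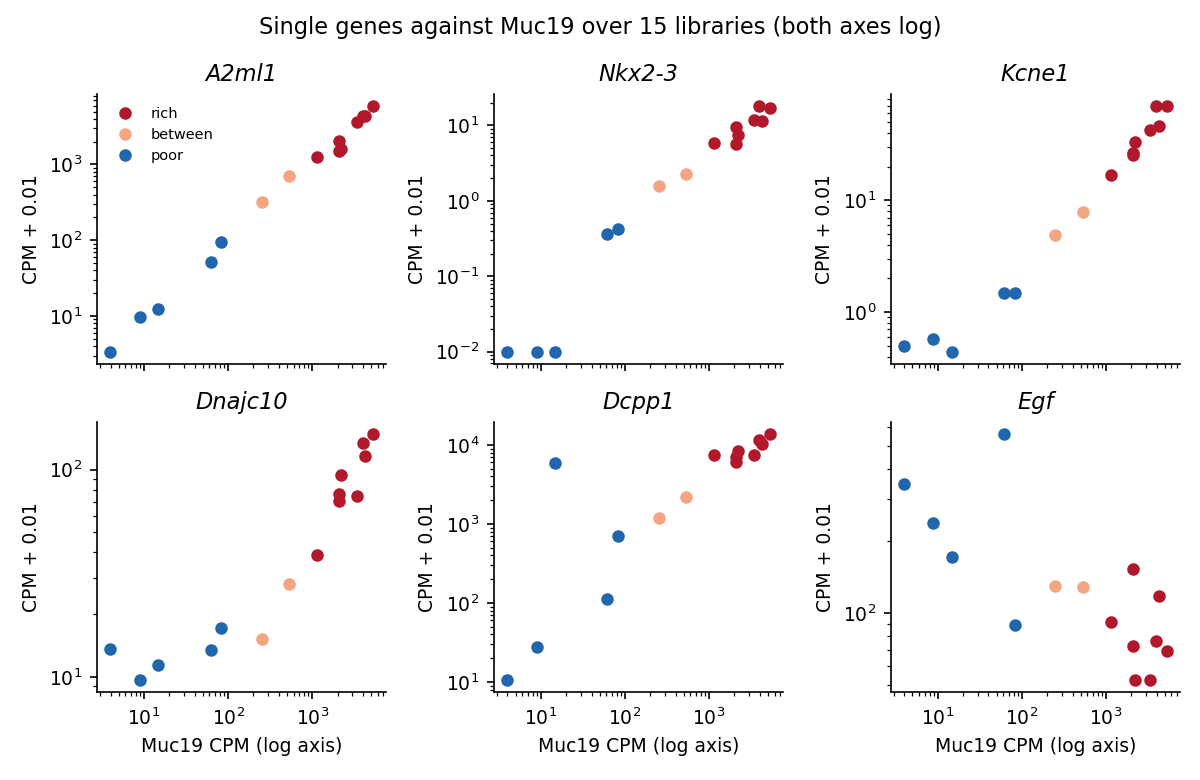
CPM + 0.01 of 6 genes against Muc19 CPM in 15 libraries, both axes log. A2ml1 rises with Muc19 over the whole range. Nkx2-3 (0 CPM) and Kcne1 (0.432 to 0.558 CPM) are level in control 3, SJQYD 5 and model 3, which have the least Muc19, and rise above that. Dnajc10 is flat in all poor libraries (9.63 to 17.2 CPM) and rises to 148 CPM. Dcpp1 departs in model 3, and Egf is higher in most poor libraries.

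The class difference was also compared between NOD/LTJ (6 rich, 2 poor) and ICR (2 rich, 3 poor) libraries. Of 20041 genes, 1 (0.00499%) differed in this respect at an adjusted p under 0.05, and 941 at an unadjusted p under 0.05. That gene was Gopc, a Golgi protein that binds PDZ ligands. It averaged 7.10 CPM in rich and 6.33 CPM in poor NOD/LTJ libraries, and 0.739 CPM in rich and 8.35 CPM in poor ICR libraries. The difference between the log2 fold changes was 3.66 (SE 0.32, adjusted p = 0.00052). Model 5, an NOD/LTJ library between the classes, was also low, at 0.742 CPM. The count of such genes ran from 1 to 14 when single libraries were left out, with 14 without control 4 and 5 without control 2, which leave a single rich ICR library. Of 69 other genes taken up by the naming rules or after their values were seen, 7 (10.1%) differed between strains at an unadjusted p under 0.05, as did 4.7% of all genes, and none had an adjusted p under 0.96. The 7 were Nkx2-3 with a difference of 6.89 (SE 2.58), Mobp with 7.21 (SE 2.69), Tmc5 with 2.00 (SE 0.89), Creb3l4 with 1.21 (SE 0.55), Irf4 with -1.53 (SE 0.62), Lpl with -0.84 (SE 0.38) and Nefh with -5.09 (SE 1.80). Nkx2-3 and Mobp had no count in poor NOD/LTJ libraries and Nefh had none in poor ICR libraries, so the size of their differences depends on the fit.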

How the data were processed

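Per the labels' protocols, poly(A) RNA was taken from Trizol extracts, the second cDNA strand was marked with dUTP and removed, adapters carried molecular identifiers, and both ends of the fragments were read. Tools named in the submitters' processing notes, with no order or role, are StringTie 1.3.4d, HISAT2 2.0.4, cutadapt 1.9, edgeR, DESeq2 and UMI-tools. The authors deposited whole-number read counts for 55401 genes, of which 22922 were at 0 in all 15 libraries, and a table of FPKM values (per length and library size). Counts of 4 were more frequent in the deposited table than counts of 1, 2 or 3, so a fragment may add several counts, and floors of 3 counts are then too low. The notes name the mouse build mm9. Gene positions in the deposited table equalled GENCODE positions on GRCm38 for 179 of 216 genes compared (82.9%), so coordinates are given as GRCm38.

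Counts were analysed in R 4.3.3 with edgeR 4.0.16: default expression filter, TMM factors, a robust quasi-likelihood fit with treatment group and class, and Benjamini-Hochberg adjustment over all genes tested. The SE of a log2 fold change is its size divided by the square root of F. The genes named with large differences were up to 12 called genes per direction with at least 5 CPM in the higher class, a 2-fold difference and no overlap, leaving out unnamed and predicted genes. For each of 26 gene lists up to 4 members with the smallest p could be named. A few genes that these rules name are not reported here. The classes, markers and lists were chosen with earlier results of these data known. No pair of libraries of a group was alike within sampling noise. In simulated counts for 19000 genes, 200 of them changed, 62% of those changed 2-fold and 94% of those changed 4-fold were called, and 7 of 163 calls were false. These counts were drawn independently for each gene and library, with no difference between treatment groups and no admixed tissue. The rates hold for such counts and do not carry over to the calls in these libraries. Alternatives included other scalings, filters and covariates, DESeq2 1.42.0, limma 3.58.1 on log2(FPKM + 1) and log2(FPKM + 0.1) for genes with at least 0.5 FPKM in 5 libraries, and leaving out each library.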

Additional observations from a re-analysis of the deposited data

Results flagged for a closer look

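Several single libraries lay far from the rest of their class, by a gap test that flags about 1 in 20 groups by chance and was applied 150 times. Among poor libraries, control 1 was high for Mup6 (0.391 CPM), Mobp (0.223 CPM), A4gnt (0.307 CPM) and Isl2 (0.363 CPM), and model 3 was high for Fcgbp (3.98 CPM) and for the summed share of 4 parotid genes (16.0%). SJQYD 5 was high for Adipoq (11.2 CPM) and Nnat (4.80 CPM). Among rich libraries, SJQYD 3 was high for Adipoq (0.652 CPM) and Plin1 (0.606 CPM), SJQYD 4 was high for Nnat (0.208 CPM) and SJQYD 1 was low for the share of Mucl2 (15.5%).

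Gopc differed between strains in the rich against poor comparison, by 3.66 log2 units (NOD/LTJ minus ICR, SE 0.32, edgeR adjusted p = 0.00052). Its level was 0.557 and 0.92 CPM in the rich ICR libraries control 2 and control 4, against 7.73 to 8.85 CPM in the poor ICR libraries.

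Of the libraries outside the comparison, model 2 had 286.6 and model 5 had 513.1 CPM of total (counts scaled to the unadjusted library total) of Muc19, both above the 48.9 of the highest poor library.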

How the results depend on the processing

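All 109 higher genes kept their direction in every alternative fit in which they were tested (80 of them with a 1 CPM filter and 82 with FPKM). The number called higher was 169 with Muc19 as a continuous covariate and 279 with DESeq2, but 15 with the replicate block, 37 without the 3 parotid-rich libraries and 36 with limma on log2(FPKM + 1), and between 41 and 112 when single libraries were left out. The number called lower was 67 with DESeq2, 2 with a parotid covariate or a 2-fold minimum, 1 with total counts only or the replicate block, 0 without the parotid-rich libraries or with either FPKM fit, and between 0 and 33 when single libraries were left out. The share of higher genes among calls was 93.2%, against 80.6% with DESeq2 and 74.2% without control 1. Total-count scaling moved the median of all genes to 0.33 and the FPKM fits moved it to 0.17 and 0.27. Directions turned for Smgc (-0.37 with no covariate), for Nudt5 (0.16 with total counts, 0.087 and 0.13 with the FPKM fits), for Pdha1 (0.012, 0.0013 and 0.0023), and for the parotid share, whose difference of -1.65 percentage points became 0.296 without the parotid-rich libraries and lay between -2.48 and 1.52 (without model 3) when single libraries were left out. The cause was not tested. Same-numbered libraries did not deviate together (r from -0.332 to 0.286, 4 of 15 pairs over 0.1; 3 of 15 libraries correlated best with their own number), so the numbers were not read as pairs; of the 15 genes called higher with the block, 5 were among the 109. The genes whose class difference varied by strain numbered between 1 and 14 when single libraries were left out. With 5 poor libraries, the depth limits genes under 0.0837 CPM, the level of 3 counts in the shallowest scaled library.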
